A study of Mus musculus with 5 samples.

Results

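The 42 genes described here act in DNA replication and the S phase of the cell cycle. They were taken from a named list by gene symbol, and all 42 were found among the 18767 genes of the count table. Their unique molecular identifier (UMI) counts, each standing for 1 captured transcript, were followed through 10275 CD45+ cells, which were sorted from the thyroids of NOD mice, an autoimmunity-prone strain, and sequenced with 10x Genomics 5' chemistry. The members held 186085 UMIs. The NOD.WT mice, of both sexes, began treatment at an age of 4 to 6 weeks. One group of 16 mice received anti-PD-1 (clone RPM1-14) plus anti-CTLA-4 (clone 9D9) antibodies at 10 mg/kg per dose, by intraperitoneal injection 2 times a week for 4 weeks (immune checkpoint inhibition, ICI), and gave 4 libraries, ICI 1 to ICI 4. The other group of 10 mice received isotype control antibodies (clones 2A3 and MPC11) on the same schedule and gave 1 library. The labels do not tie mice to libraries, mice were pooled, and the isotype group has no replicate, so every p below measures only the spread between ICI libraries.

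Before S phase, origins of replication are licensed by loading the MCM helicase, which Cdc45 and the GINS complex then activate. Polymerases tethered by the sliding clamp PCNA copy the DNA while deoxynucleotides are made and histones are packed onto the new strands. Many of these genes are known targets of E2F transcription factors, whose release by cyclin-dependent kinases raises their transcripts from late G1 into S phase. Among immune cells such transcripts mark dividing cells, for example activated lymphocytes and proliferating thymocytes, the T cell precursors of the thymus.

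The libraries held between 1163 and 5018 cells and between 3858251 and 32296759 UMIs, with a median per cell between 1753 UMIs (ICI 1) and 4321 UMIs (ICI 4). The table held 1523 of the 1688 cells that the labels state for ICI 1, 1219 of 1234 for ICI 2, 1163 of 1178 for ICI 3, and as many as stated for ICI 4 (5018) and the isotype library (1352). ICI 2 and ICI 3 shared 140 cell barcodes, while every other pair of libraries shared between 0 and 12. The titles of ICI 1 to ICI 3 are related (m1, m1a and m1b), and that of ICI 4 has another form. The records of ICI 4 and the isotype library are numbered consecutively, apart from those of ICI 1 to ICI 3. Because of the related titles, ICI 1 to ICI 3 were also summed as 1 library, as an alternative. Whether the ICI libraries are independent, or differ by batch, was not tested. Between 67 and 104 cells in each of ICI 1 to ICI 3, 238 cells in ICI 4 and 221 of 1352 cells in the isotype library held at least 2 UMIs each of T cell and of myeloid marker lists.

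The promoters of the members were searched for E2F-type motifs, because E2F factors are the best-known common regulators of these genes. RefSeq promoter sequences (GRCm38.p6, 250 bases before to 50 after each start site) matched 32 of the 42 members. The letters TTCCCGC or TTGGCGC, on either strand, were present in 18 of these 32 promoters (56.2%), against 7.79% of 27025 genes in the table. The other replication genes, a list of 48 that the members do not contain, had them in 23 of 42 matched promoters (54.8%), and the G2 and M phase genes, a list of 48 that acts in mitosis, in 7 of 41 (17.1%). With 1 more T in front (TTTCCCGC or TTTGGCGC) the share of members was 34.4%, against 1.80% of all genes. The letters TTTGAA, a motif known from mitotic gene promoters, were in 6 of 32 member promoters (18.8%), 29 of 41 G2 and M phase promoters (70.7%) and 20.2% of all genes. The box CCAAT was in 22 of 32 (68.8%), 33 of 41 (80.5%) and 41.1%. Members and other replication genes thus had the E2F-type letters at a like share, and TTTGAA was at the share of all genes in the members. These matches describe letters in a window and not binding.

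The 200 bases before the start site are given for 6 members that differ in how narrowly their transcripts were held by dividing cells (values follow), with E2F-type letters in capitals, read 5′ to 3′ on the strand of the gene. Mcm5 (chr8:75109309-75109508, plus strand) and Mcm6 (chr1:128359706-128359905, minus strand) encode helicase subunits and each hold 2 matches. Dtl (chr1:191575545-191575744, minus strand), a substrate adaptor of a ubiquitin ligase that limits licensing, holds 2, the second directly before the start site. Cdc6 (chr11:98907951-98908150, plus strand), a helicase loader, holds 1. Casp8ap2 (chr4:32615270-32615469, plus strand), a nuclear protein needed for histone gene expression, holds 3, of which 2 overlap on opposite strands. Rrm2 (chr12:24708054-24708253, plus strand), the S phase subunit of ribonucleotide reductase, holds none in the window.
Mcm5: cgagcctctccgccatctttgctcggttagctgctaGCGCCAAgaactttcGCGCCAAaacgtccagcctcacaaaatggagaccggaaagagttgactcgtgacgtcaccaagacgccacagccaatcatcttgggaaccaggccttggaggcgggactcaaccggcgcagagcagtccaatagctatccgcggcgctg
Mcm6: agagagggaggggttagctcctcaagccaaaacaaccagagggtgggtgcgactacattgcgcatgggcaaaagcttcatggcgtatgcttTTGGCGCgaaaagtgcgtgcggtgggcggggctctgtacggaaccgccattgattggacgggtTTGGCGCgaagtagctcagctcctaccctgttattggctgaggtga
Dtl: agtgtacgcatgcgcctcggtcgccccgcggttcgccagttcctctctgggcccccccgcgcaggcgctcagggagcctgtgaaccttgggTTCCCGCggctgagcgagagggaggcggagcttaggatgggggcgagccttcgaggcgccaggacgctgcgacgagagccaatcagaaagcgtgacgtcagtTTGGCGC
Cdc6: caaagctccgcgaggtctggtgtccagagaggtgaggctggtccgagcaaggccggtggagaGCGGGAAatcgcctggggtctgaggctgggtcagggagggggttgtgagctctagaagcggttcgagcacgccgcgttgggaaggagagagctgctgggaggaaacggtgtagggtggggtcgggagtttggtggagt
Casp8ap2: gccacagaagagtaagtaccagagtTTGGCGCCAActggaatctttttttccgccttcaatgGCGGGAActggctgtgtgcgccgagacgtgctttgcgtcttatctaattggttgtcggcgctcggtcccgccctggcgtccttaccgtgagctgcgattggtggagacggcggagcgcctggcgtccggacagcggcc
Rrm2: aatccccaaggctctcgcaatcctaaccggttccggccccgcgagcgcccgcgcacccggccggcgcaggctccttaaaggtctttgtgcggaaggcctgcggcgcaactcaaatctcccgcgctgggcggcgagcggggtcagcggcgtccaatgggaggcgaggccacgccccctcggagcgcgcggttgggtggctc
The member with the broadest expression among these 6, Casp8ap2, had the most matches, and the narrowest, Rrm2, had none. Among the 14 members held most narrowly by clusters 5 and 12 (below), 6 of 11 matched promoters had the letters, and among the 14 held least narrowly 4 of 10 did.

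The transcripts were concentrated in clusters 5 and 12 of the 17 that the authors numbered. Cluster 5 held 68.8% of all member UMIs in 7.83% of the cells, and cluster 12 held 10.9% in 3.03% of the cells, so that 79.7% of member UMIs lay in the 2 clusters, against 29.8% of all UMIs. Summed over the 42 members, the level in cluster 5 was 10993 CPM (UMI counts scaled to a common library total) in ICI 1, 8946 in ICI 3, 10600.5 in ICI 4 and 9363 in the isotype library. In cluster 12 it was 3733 CPM in ICI 1, 6198 in ICI 4 and 5369 in the isotype library. Library and cluster sums of fewer than 20 cells were left out: cluster 5 of ICI 2 had 18 cells and cluster 12 of ICI 2 and ICI 3 had 8 and 14. In the other clusters apart from cluster 15 the mean over libraries lay between 789.5 CPM (cluster 16) and 1303 CPM (cluster 4), the latter with the isotype library at 2491 CPM. Cluster 15 reached 2037 CPM in ICI 4, the only library with 20 cells of it. The clusters were made by the authors from the same cells, with the genes used not stated, so these levels are a description and were not tested.

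**Figure D1:**
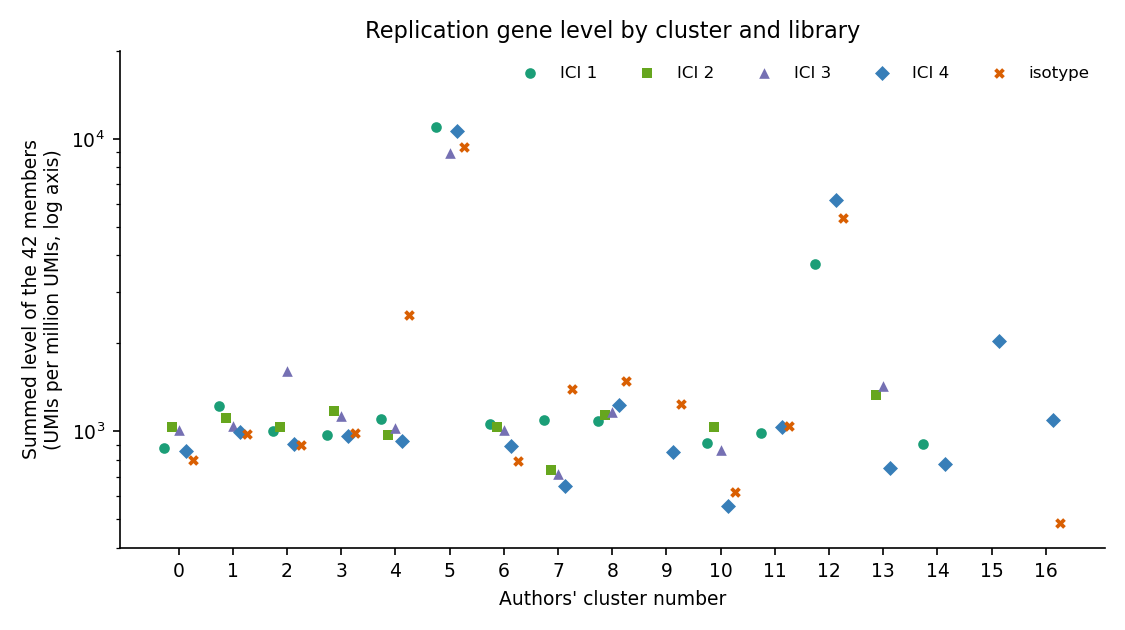
Summed level of the 42 members (CPM, log axis) in each of the authors' clusters; each point is 1 library with at least 20 cells of the cluster. Cluster 5 lies between 8946 and 10993 CPM and cluster 12 between 3733 and 6198 CPM, and all other points are lower, the highest of them the isotype point of cluster 4 at 2491 CPM.

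Cluster 5 was made of T lineage cells. Cd3e, a subunit of the T cell receptor complex, had a UMI in 85.7%, 88.9%, 72.0%, 99.6% and 99.3% of its cells in ICI 1 to ICI 4 and the isotype library. Dntt, the terminal transferase of immature lymphocytes, was seen in 98.2% of cluster 5 cells in ICI 4 and 98.0% in the isotype library, 44.4% in ICI 1, 11.1% in ICI 2 and 4.00% in ICI 3. In cluster 12, Dntt was seen in 9.77% of cells in ICI 4 and 13.6% in the isotype library, and Tnfrsf9, a receptor induced on activated T cells, in 36.7% and 36.4%. The cells of cluster 5 thus differed between libraries in their thymocyte markers, and the 13 thymocyte genes summed to 3139.7, 370.2, 740.3, 3405 and 3605 CPM there in the same order. Median depth in cluster 5 also differed, from 1686 UMIs per cell in ICI 3 to 14788.5 in ICI 4, and these shares were not thinned.

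Each of the 42 members had more than 50% of its UMIs in clusters 5 and 12. Among the 8784 genes with at least as many UMIs as the least abundant member (523), 7.64% did, and their median was 28.2%. The share passed 80% in 22 members and 90% in 13. Rrm2 (97.1%), Cdc6 (96.7%), Pclaf (96.4%), E2f8 (96.3%) and Exo1 (96.0%) were the most narrowly held. Ubr7 (50.1%), Casp8ap2 (50.7%), Rfc2 (53.9%), Pold3 (59.6%), Wdr76 (59.8%) and Mcm4 (62.9%) were the least. Mean level was highest in cluster 5 for 41 members, and Ubr7 was highest in cluster 11, at 45.5 CPM against 43.2 CPM in cluster 5. The share rises with the number and depth of dividing cells in a library, and ICI 4 alone gave most cells of both clusters.

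**Figure D2:**
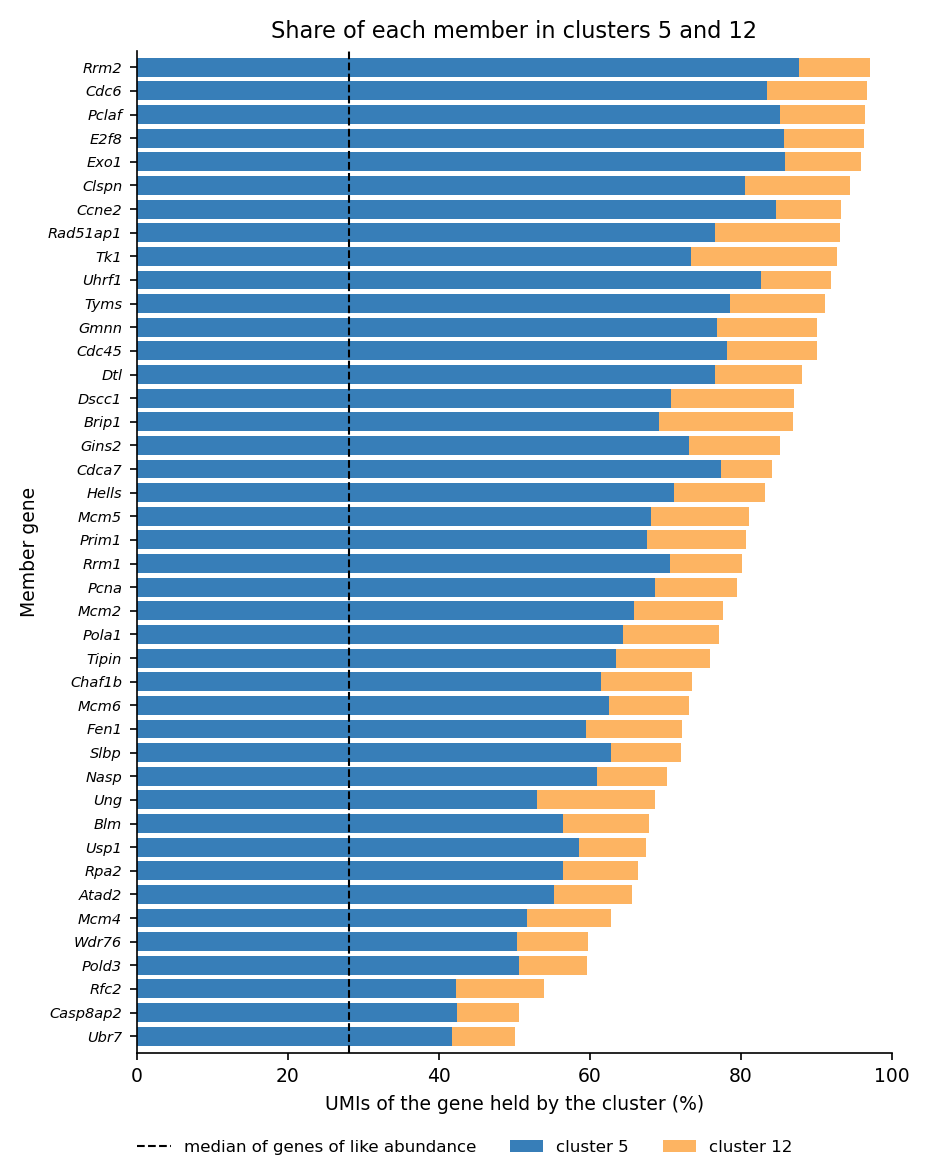
Percent of each member's UMIs, over all libraries, in cluster 5 (blue) and cluster 12 (orange). The dashed line is the median of both clusters together over the 8784 genes of at least 523 UMIs (28.2%); every member lies beyond it, from Ubr7 at 50.1% to Rrm2 at 97.1%.

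The licensing and helicase genes divided into broad and narrow members. Mcm6, a subunit of the replicative helicase, stood at 491, 458, 471 and 417 CPM in cluster 5 of ICI 1, ICI 3, ICI 4 and the isotype library, and at a median of 57.6 CPM over the other 15 clusters, apart from cluster 12. Mcm4 of the same helicase stood at 310, 458, 296 and 290 CPM in those libraries, only 4.79-fold above its median elsewhere (70.6 CPM), and was seen in 28.3% of all cells. Mcm6 was 7.98-fold, Mcm2 9.03-fold and Mcm5 12.1-fold above the median elsewhere. The loader Cdc6 was the other extreme, at 100.1, 82.3, 153 and 119.9 CPM in cluster 5 and a median of 0.28 CPM elsewhere. Gmnn, the inhibitor that prevents relicensing, was 22.8-fold higher in cluster 5, the helicase cofactors Cdc45 and Gins2 28.2-fold and 14.4-fold, and Dtl 18.9-fold. After thinning every cell to 1000 UMIs, Mcm4 was seen in 27.2% of cluster 5 cells and 6.66% of the cells outside both clusters, and Cdc6 in 12.6% and 0.082%.

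Among the clamp, polymerase and primase genes, the clamp Pcna stood at 605, 550.1, 603 and 533 CPM in cluster 5 of ICI 1, ICI 3, ICI 4 and the isotype library, with a mean of 573 ± 36.5 (SD, n = 4), 10.8-fold above its median elsewhere. Its partner Pclaf was the most abundant member with 15533 UMIs, at 881, 879, 1095 and 1028 CPM in the same libraries, 169-fold above the median elsewhere (5.75 CPM). Rfc2, a subunit of the clamp loader, was 2.76-fold higher in cluster 5 and had UMIs in 23.2% of all cells. Pold3, an accessory subunit of polymerase delta, was 3.98-fold higher, and Rpa2, a subunit of the single-strand binding complex, 5.61-fold. The flap endonuclease Fen1 (7.08-fold), the polymerase alpha subunit Pola1 (7.01-fold), the primase subunit Prim1 (9.95-fold) and the clamp loader component Dscc1 (15.1-fold) filled the range between them. Pclaf and Rfc2, which both act at the clamp, thus differed widely in how far they were limited to cluster 5.

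The 4 deoxynucleotide genes had a median of 92.0% of their UMIs in clusters 5 and 12, next to 93.3% for the 3 cycle regulators and between 72.1% and 85.2% for the other role groups. Rrm2 stood at 1159, 719.8, 1017 and 849.8 CPM in cluster 5 of ICI 1, ICI 3, ICI 4 and the isotype library (937 ± 192, SD, n = 4), 156-fold above its median elsewhere (5.99 CPM). Rrm1, the large subunit of the same enzyme, stood at 352, 278, 371 and 316 CPM, 9.13-fold above its median elsewhere (36.1 CPM). Tyms, which makes thymidylate, was 22.0-fold higher and Tk1, a thymidine salvage kinase, 57.0-fold higher in cluster 5. The 2 subunits of ribonucleotide reductase thus differed in how far they were limited to the dividing clusters.

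In the fork protection and repair group, Exo1, an exonuclease, and Rad51ap1, a recombination factor, were 175-fold and 78.2-fold higher in cluster 5 than their median elsewhere, at mean levels of 46.4 ± 19.3 and 110 ± 21.2 CPM (SD, n = 4). Clspn, a checkpoint mediator, was 49.9-fold higher. Usp1, a deubiquitinase of repair proteins, and Tipin, a fork protection factor, were abundant and broad (5.64-fold and 7.73-fold). Blm and Brip1, helicases, were 6.75-fold and 19.3-fold higher. Ung, the uracil DNA glycosylase, was the 1 member of this group seen in more cluster 12 cells than cluster 5 cells by over 1 percentage point after thinning, at 6.17% against 4.79%.

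Of the chromatin and histone genes, Slbp, which binds histone mRNA, was the most abundant at 827, 648, 669.8 and 665 CPM in cluster 5 of ICI 1, ICI 3, ICI 4 and the isotype library, and also the highest member elsewhere, at a median of 108 CPM. Nasp, a histone chaperone, was the steadiest, at 300.04 ± 13.9 CPM (SD, n = 4). Uhrf1, which recruits maintenance methylation, was 39.0-fold higher in cluster 5, Cdca7 and Hells, partners in chromatin remodelling, 15.8-fold and 11.1-fold, and Chaf1b, a chromatin assembly subunit, 7.85-fold. Atad2 (4.63-fold), Casp8ap2 (2.30-fold) and the ubiquitin ligase Ubr7 (1.67-fold) were broad. The cycle regulators were E2f8, an E2F repressor, at 182-fold, cyclin E2 (Ccne2) at 34.5-fold and Wdr76 at 3.30-fold.

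Cluster 12 carried the members at lower levels than cluster 5. Its log2 ratio to cluster 5 had a median of −0.72 in the isotype library, −0.64 in ICI 4 and −1.59 in ICI 1, where 30 cells entered and 1 cell held 30.1% of the member UMIs. The ratio was below 0 for 38 of 42 members in the isotype library, for 38 in ICI 4 and for all 42 in ICI 1. The exceptions were Pola1, Rad51ap1, Blm and Brip1 in the isotype library and Ung, Tk1, Rfc2 and Brip1 in ICI 4, at log2 ratios of at most 0.21. Uhrf1 (−1.25, −1.26 and −3.54 in the isotype library, ICI 4 and ICI 1) and Cdca7 (−1.26, −1.73 and −1.58) were more than 1 log2 unit lower in each. So were Pclaf (−1.10, −1.03 and −1.31), Rrm2 (−1.03, −1.39 and −1.87), Exo1 (−1.44, −1.15 and −2.78) and Ccne2 (−1.13, −1.45 and −1.82). Prim1 lay at −0.64, −0.50 and −0.52.

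Within cluster 5 the members divided by their relation to mitotic transcripts. Cells were ranked in each library by the summed level of the 48 G2 and M phase genes and cut into 3 equal groups (low, middle and high), in the 3 libraries with over 50 cells of the cluster (63 in ICI 1, 546 in ICI 4, 153 in the isotype library). In all 3 libraries 17 members were lower in the high group than in the low group and 8 were higher. The other 17 were mixed or, for Ung, lacked a ratio in the isotype library. The share over all genes was not computed, so these counts have no background beside them and are descriptions. The falling members included the helicase genes Mcm2 (log2 −0.80, −0.91 and −0.97 in ICI 1, ICI 4 and isotype), Mcm6 (−1.33, −0.88 and −0.97), Mcm5 (−0.84, −0.66 and −0.69) and Mcm4, with Gins2 (−1.41, −0.96 and −1.82), Chaf1b (−2.12, −1.17 and −1.10), Hells (−1.21, −0.91 and −0.65) and Pcna (−0.58, −0.39 and −0.32). The rising members were Rrm2 (0.91, 0.44 and 0.79), Rrm1 (1.06, 0.20 and 0.33), Tyms (0.60, 0.34 and 0.66), E2f8 (1.04, 0.67 and 0.77), Pclaf (0.83, 0.30 and 0.38), Rad51ap1 (0.31, 0.52 and 1.02), Pold3 and Usp1. Ung had the steepest fall, −2.97 in ICI 1 and −4.59 in ICI 4, and no UMI in the high group of the isotype library. Its low group there stood at 121 CPM, so Ung was lower in all 3 libraries as well. Between the low and the high group, the 4 Mcm genes thus fell and 3 of the 4 deoxynucleotide genes rose. The clamp group was split, with Pcna falling and Pclaf rising. The middle group did not always lie between. Rrm2 peaked there in ICI 1 (1661 CPM, against 720 low and 1352 high) and in the isotype library (1057, against 558 and 964), but not in ICI 4. Mcm6 peaked there in ICI 1 only (612 CPM, against 560 low and 223 high). The summed thymocyte genes were higher in the high group as well, at 5367 against 2130 CPM in ICI 1, 4602 against 2807 CPM in ICI 4 and 4542 against 3178 CPM in the isotype library. Median depth was lower there, at 4065 against 11071 UMIs in ICI 1, 13006.5 against 15590.5 in ICI 4 and 8249 against 10293 in the isotype library. The part of thymocyte state and depth in this order was not tested.

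**Figure D3:**
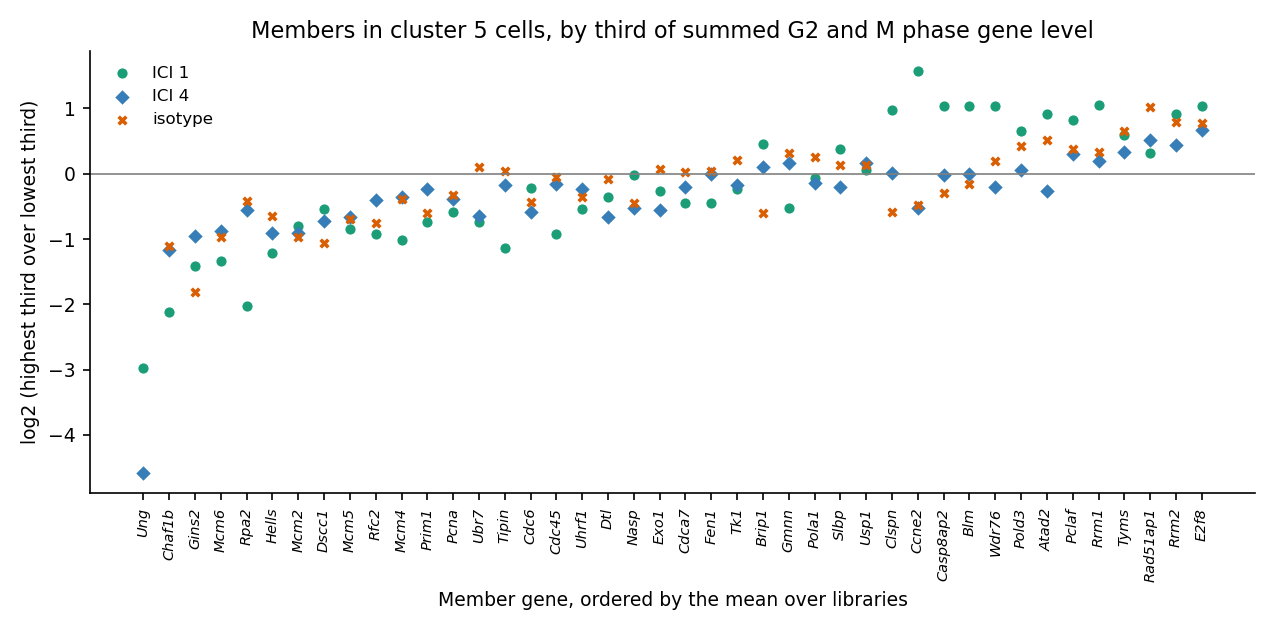
log2 ratio of each member between the cluster 5 cells of the high and the low group by summed G2 and M phase gene level, for ICI 1, ICI 4 and the isotype library; the isotype point of Ung is absent because its high group held no UMI. Members are ordered by the mean over libraries, with Ung, Chaf1b, Gins2 and Mcm6 lowest and E2f8 and Rrm2 highest.

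Over 65 sums of 1 cluster in 1 library with at least 20 cells, the genes outside the members that followed the members' summed log2 level most closely were Kif4 (Pearson r = 0.877), Pimreg (0.873), Mtfr2 (0.867), Nuf2 (0.859), Hmmr (0.855), Mcm10 (0.850), Mxd3 (0.848), Dek (0.847), Neil3 (0.846) and Sgo1 (0.844). Of these 10, Mcm10 was on the list of other replication genes and Nuf2 and Hmmr were on that of G2 and M phase genes. Among members, Exo1 (0.874), Pcna (0.854) and Cdc6 (0.839) followed the sum best, and Ubr7 (0.260), Wdr76 (0.385) and Casp8ap2 (0.455) least. The sums share libraries and depth, members enter their own sum, and the values are descriptions.

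To count cells rich in member UMIs at equal depth, every cell was thinned to 1000 UMIs, which left 9658 cells and left out 617 shallower ones. Cells with at least 4 member UMIs of 1000 made up 8.77% of ICI 1, 4.11% of ICI 2, 5.58% of ICI 3, 15.1% of ICI 4 and 15.1% of the isotype library. The first 3 ICI libraries were below the isotype library and ICI 4 was level with it. The ICI mean was 8.40% ± 4.89 (SD, n = 4). Of the 1164 such cells, 79.3% lay in clusters 5 and 12. The class is a range and not a cell type, since 512 cells had 3 such UMIs, 223 had 4 and 98 had 5. In cluster 5, 88.7% of cells in ICI 1, 88.9% in ICI 3, 94.9% in ICI 4 and 91.5% in the isotype library passed (exact Clopper-Pearson 95% intervals 78.1 to 95.3%, 65.3 to 98.6%, 92.7 to 96.6% and 85.9 to 95.4%, counting error only). In cluster 12 the shares were 20% in ICI 1, 67.4% in ICI 4 and 52.3% in the isotype library (7.71 to 38.6%, 60.7 to 73.7% and 36.7 to 67.5%). Outside clusters 5 and 12 the members' level after thinning was 1.09, 1.05, 1.08 and 0.91 UMIs per 1000 in ICI 1 to ICI 4 and 0.93 in the isotype library.

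The deposited S phase calls placed ICI 1 to ICI 3 above ICI 4 and the isotype library. They covered 25.1%, 33.1% and 35.1% of cells in ICI 1 to ICI 3, 11.4% in ICI 4 and 16.9% in the isotype library. Of 1996 S calls, 1380 lay outside clusters 5 and 12. Of the 1846 S calls with at least 1000 UMIs, 514 (27.8%) had 0 or 1 member UMIs after thinning. Of the 1164 cells with at least 4, 60.8% were called S, 33.1% G2M and 6.10% G1. The genes behind the deposited calls are not given in the sources used here. Median depth was lower in ICI 1 to ICI 3 (1753, 2844 and 3567 UMIs per cell) than in ICI 4 (4321), with the isotype library at 3621.5, and its part in the calls was not tested.

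**Figure D4:**
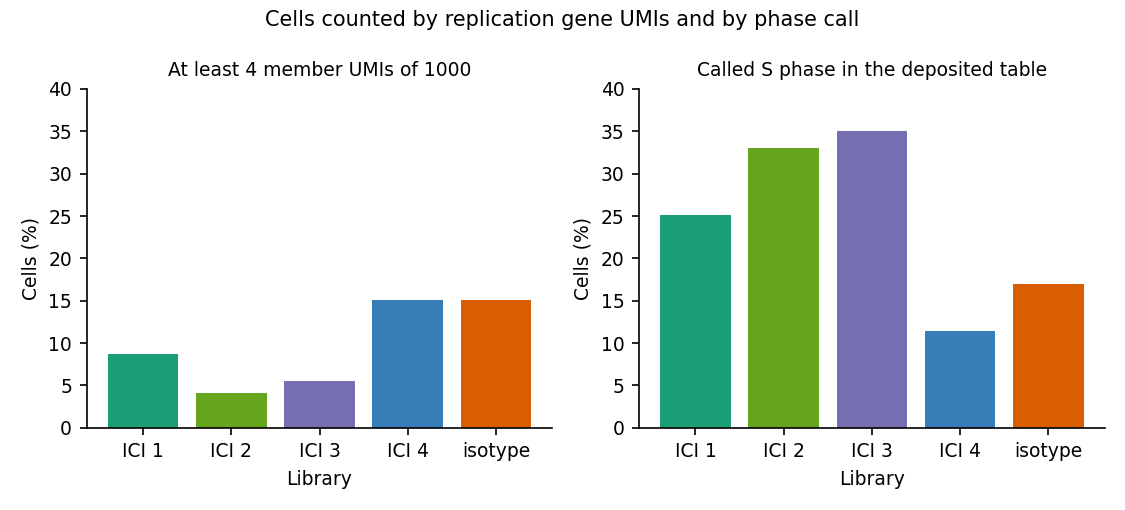
Percent of cells in each library with at least 4 member UMIs after thinning to 1000 UMIs (left) and percent called S phase in the deposited cell table (right). On the left ICI 4 and the isotype library are highest at 15.1%, while on the right ICI 2 and ICI 3 are highest at 33.1% and 35.1%.

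The ICI and isotype libraries were then compared on summed UMIs, first over all cells. edgeR's quasi-likelihood test called none of the 42 members at an adjusted p below 0.05, none had an unadjusted p below 0.05, and DESeq2 called none. The background was 0% of 12659 genes called by edgeR, 516 genes (4.08%) with an unadjusted p below 0.05, and 38 genes called by DESeq2. The log2 fold change of ICI over isotype was negative for 40 of 42 members, against 48.9% of all genes, with a median of −0.60 against 0.02. No member had every ICI library below the isotype library, against 22.5% of genes, because ICI 4 was above it for all 42. In a comparison of ICI 4 with the isotype library alone, which has no test, the median was 0.35, and without ICI 4 it was −1.20, with 24 members at an unadjusted p below 0.05, against 26.1% of 12503 genes, and none of them called, against 1.68%. In that fit 39 members lay below the isotype library in each of ICI 1 to ICI 3, against 37.5% of genes. Without ICI 2 the median was −0.36 and without ICI 3 −0.38. In a sum over mixed cells, fewer dividing cells and less of a transcript per cell cannot be told apart. Clusters 5 and 12 together made up 6.11% of cells in ICI 1, 2.13% in ICI 2 and 3.35% in ICI 3. They made up 15.2% in ICI 4 and 14.6% in the isotype library. The summed members had the same order, at 2255, 1294, 1362, 4264 and 3371 plain CPM in these libraries. The 48 G2 and M phase genes moved alongside, 48 of 48 negative with a median of −1.12, and so did the 13 thymocyte genes, 13 of 13 negative with a median of −1.78, while 40 of 48 other replication genes were negative with a median of −0.47.

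Single members show the pattern over all cells, here in CPM on edgeR's TMM-scaled library sizes. Pclaf stood at 116, 38.9, 42.2 and 397 in ICI 1 to ICI 4 and at 323 in the isotype library, a log2 fold change of −1.12 ± 1.26 (SE; edgeR adjusted p = 0.822). Its ICI 4 value was above and its other ICI values were below the isotype value. Gmnn, with the largest decrease, stood at 38.1, 12.2, 16.99 and 102 against 99.8 (log2 −1.22 ± 1.07, edgeR adjusted p = 0.817). Pcna stood at 110, 64.8, 75.8 and 259 against 205 (log2 −0.68 ± 0.77, edgeR adjusted p = 0.822). The 2 members with a positive value were broad ones. Rfc2 stood at 63.4, 67.5, 74.6 and 85.4 against 65.8 (log2 0.15 ± 0.26, edgeR adjusted p = 0.872), and Wdr76 at 33.9, 21.4, 26.2 and 30.7 against 26.8 (log2 0.07 ± 0.33, edgeR adjusted p = 0.955). For both the ICI libraries lay on either side of the isotype value. With cells of mixed T and myeloid UMIs removed, both turned negative (log2 −0.04 and −0.10).

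Outside clusters 5 and 12 the difference did not vanish in the summed counts. Of the 42 members 41 passed the low-count filter, 4 of them through the isotype library alone, which fixes a negative value for those 4. edgeR called none, against 0.00795% of 12585 genes, and DESeq2 called none of them among 95 genes, while 10 members had an unadjusted p below 0.05, against 7.19% of genes. The log2 fold change was negative for 31 of 41, against 48.5% of genes, with a median of −0.45 against 0.02, and with no low-count filter for 33 of all 42, with a median of −0.48. In 25 members every ICI library lay below the isotype library, against 25.4% of genes, and in Pold3 and Rfc2 every one lay above, against 23.4%. With no low-count filter every ICI library lay below it in 26 of 42 members, against 30.2% of genes, and above it in 2, against 16.65%. Narrowly held members were among those with the largest decreases. Pclaf stood at 9.37, 2.07, 2.43 and 12.5 CPM in ICI 1 to ICI 4 and at 48.4 in the isotype library (log2 −2.82 ± 0.86, edgeR adjusted p = 0.691). Rrm2 stood at 9.12, 3.62, 4.13 and 8.20 against 33.1 (log2 −2.38 ± 0.52, edgeR adjusted p = 0.549). Of the others Clspn (log2 −2.03), Dtl (−2.02) and Rad51ap1 (−2.005) were closer to 0. E2f8 (−2.81), Cdc6 (−2.56) and Ccne2 (−2.17) were among the 4 that passed through the isotype library alone, so their negative values are no support here. At the other end, Rfc2 stood at 53.7, 63.1, 67.3 and 48.1 against 39.7 (log2 0.54 ± 0.28, edgeR adjusted p = 0.707).

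These residual values changed under thinning and under removal of mixed cells. The part of deep cells was not tested, since no fit left them out. Among cells of more than 10000 UMIs outside clusters 5 and 12, the summed members stood at 767, 732, 948 and 1413 CPM in ICI 1 to ICI 4 and 1729 CPM in the isotype library, where 94 of the 129 cells held T cell and myeloid UMIs together. Among cells of 2000 to 5000 UMIs the isotype library was lowest, at 806 CPM against 946, 1030.4, 1012 and 874 CPM in ICI 1 to ICI 4. With the cells of mixed T and myeloid UMIs removed, 38 members passed the filter and 24 were negative, with a median log2 fold change of −0.17, against 28 negative and −0.40 for the same 38 members with all cells. With every cell thinned to 1000 UMIs, 31 passed and 12 were negative, with a median of 0.11, against 21 negative and −0.27 for the same 31 in unthinned counts. The 10 members lost by thinning (Ccne2, Clspn, Rad51ap1, E2f8, Gins2, Brip1, Cdc6, Tk1, Dscc1 and Cdc45) had a median of −1.70 before it. Of these, Ccne2, E2f8, Cdc6 and Dscc1 had passed the filter through the isotype library alone. With no low-count filter, thymocyte genes (13 of 13 negative, median −2.55) and G2 and M phase genes (47 of 48 negative, median −1.51) were higher in the isotype library in the same cells. The summed thymocyte list stood at 936, 519, 570 and 1873 CPM in ICI 1 to ICI 4 and 2966 CPM in the isotype library, with no gene of the list at 0 in the latter.

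Within cluster 5 the members did not follow the whole-library order. All 42 were tested over ICI 1, ICI 3 and ICI 4, and edgeR called none (0.0316% of 9494 genes were called), none had an unadjusted p below 0.05 (0.927% of genes did), and DESeq2 called none among 8 genes. The log2 fold change was positive for 30 of 42 with a median of 0.09 against 0.02 for all genes, and negative for 12, against 48.7% of genes. With cells of mixed T and myeloid UMIs removed, 22 were positive and 20 negative, with a median of 0.0057. Every ICI library was above the isotype library in 12 members, against 19.2% of genes, and below it in 5, against 22.7%. Tk1 had the largest value, with 194, 315 and 158 CPM in ICI 1, ICI 3 and ICI 4 against 133 (log2 0.71 ± 0.53, edgeR adjusted p = 0.99996). Chaf1b stood at 87.0, 102 and 86.4 against 65.1 (log2 0.48 ± 0.39) and Clspn at 208, 171 and 212 against 144 (log2 0.46 ± 0.40). On the other side, Prim1 stood at 103, 74.8 and 129 against 138 (log2 −0.39 ± 0.43), and Gmnn at 237, 182 and 268 against 299 (log2 −0.37 ± 0.42). The SE of each was about as large as the value itself. The median was 0.02 without ICI 1 and 0.14 without ICI 3. In the same cells 13 of 13 thymocyte genes (median −0.60) and 36 of 48 G2 and M phase genes (median −0.20) were negative, and with no low-count filter 10 of 10 myeloid genes were too, at a median of −5.72, with the myeloid list at 16.0, 30.8 and 9.31 CPM against 428 CPM.

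Cluster 12 could be compared over ICI 1 and ICI 4 only. edgeR called none of 42 members, against 0.433% of 6932 genes, none had an unadjusted p below 0.05, against 2.97%, and DESeq2 called none among 5 genes. The median log2 fold change was 0.01, with 22 positive and 20 negative, and 48.7% of genes negative. Gins2 (23.99 and 63.2 CPM in ICI 1 and ICI 4 against 23.2 in the isotype library, log2 1.10 ± 0.68) and Tk1 (81.6 and 173 against 69.6, log2 0.93 ± 0.62) had the largest values, and Pold3 (28.8 and 49.0 against 72.0, log2 −0.76 ± 0.57) the lowest. For Gins2 and Tk1, ICI 1 was close to the isotype library and ICI 4 far above it, and for Pold3 both ICI libraries were below it. Gins2 lay at the floor in the isotype library, where its plain level of 22.6 CPM was the level of the low-count filter. The median was 0.30 with ICI 4 alone and −0.52 with ICI 1 alone, values that have no test. Both ICI libraries were below the isotype library in 9 members and above it in 5, against 33.5% and 33.6% of genes.

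In clusters 2 and 11, 15 of the 42 members passed the low-count filter, 9 of them through ICI libraries alone. None was called by edgeR (0.0321% of 6228 genes were called), none had an unadjusted p below 0.05 (2.41% of genes did) and DESeq2 called none among 2 genes. With no filter, 19 of 42 members were negative, against 50.7% of 14622 genes, with a median of 0.06 against −0.02. Every ICI library was then above the isotype library for 4 members, against 4.15% of genes, and below it for 7, against 26.9%. Slbp stood at 78.8, 142, 192 and 81.6 CPM in ICI 1 to ICI 4 against 77.3 (log2 0.42 ± 0.69), and Mcm6 at 44.3, 56.7, 307 and 52.4 against 47.7 (log2 0.67 ± 0.81), the latter set by ICI 3, with 22 cells. Over the members that passed the filter the median moved between −0.02 without ICI 2 and 0.35 without ICI 4.

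In cluster 4 only 16 of the 42 members passed the low-count filter. Of these, 10 passed through the isotype library alone, against 3.94% of genes, which fixes their negative sign. The signs of the 16 are therefore not counted here. edgeR called none of the 16, against 0.144% of 4160 genes, and DESeq2 called none among 9 genes. Of the 16, 9 had an unadjusted p below 0.05, against 5.26% of genes. These 2 shares cannot be compared, because the filter kept 10 of the 16 for a high isotype level alone. No excess of low unadjusted p among members is read from them. With no filter, 36 of all 42 members were negative and 6 positive, against 34.2% of 14208 genes negative, with a median of −1.68 against 0.58. Every ICI library then lay below the isotype library in 28 of 42 members, against 18.8% of genes, and above it in none, against 18.3%. Rrm2 stood at 16.1, 9.74, 8.32 and 7.28 CPM in ICI 1 to ICI 4 and 162 in the isotype library (log2 −3.98 ± 1.07, edgeR adjusted p = 0.608), Dtl at 6.46, 0, 0 and 7.8 against 144 (log2 −4.61 ± 1.41, edgeR adjusted p = 0.771), and Tk1 at 0, 0, 0 and 7.28 against 90.1 (log2 −4.42 ± 2.13, edgeR adjusted p = 0.831). Rrm2, Dtl and Tk1 each passed the filter through the isotype library alone. The isotype library had 28 cells of this cluster, and 1 of them, with 27946 UMIs, held 58.4% of their member UMIs. Without it the summed members fell from 2491 to 1298 CPM, against 1100, 972, 1028 and 926 CPM in ICI 1 to ICI 4 with all cells. With the highest cell of each gene left out in each library, 5 members passed the filter and their median was −0.54, against −0.91 for the same 5 with all cells. The count of called members was not stable. With no low-count filter 6 of 42 were called (Dtl, E2f8, Pclaf, Cdc6, Tk1 and Rrm2), against 0.563% of genes, and with ICI 1 to ICI 3 summed as 1 library 5 of 32, against 0.496%. Without ICI 2 or without ICI 3 only Rrm2 was called, against 0.279% and 0.275% of genes. All of these were lower in ICI and rest on the same 28 isotype cells.

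In cluster 7, which held the myeloid markers, 31 members passed the low-count filter, 3 through the isotype library alone and 2 through ICI libraries alone. edgeR called none, with 0% of 8997 genes called, and 11 members had an unadjusted p below 0.05, against 766 genes (8.51%). DESeq2 called 32 genes and none of the members, and gave no adjusted p for Rrm2. With no filter, 38 of all 42 members were negative, against 55.5% of 15091 genes, with a median of −0.70 against −0.11, and every ICI library lay below the isotype library in 29, against 31.2%. Rrm2 stood at 16.7, 2.78, 4.45 and 12.4 CPM in ICI 1 to ICI 4 and 75.3 in the isotype library (log2 −3.11 ± 0.65, edgeR adjusted p = 0.414). Pclaf stood at 29.7, 1.39, 0 and 24.8 against 110 (log2 −3.07 ± 1.14, edgeR adjusted p = 0.563), and Nasp at 33.4, 25.05, 29.7 and 35.1 against 63.2 (log2 −1.04 ± 0.32, edgeR adjusted p = 0.526). Without ICI 4, edgeR called Rrm2 (log2 −3.33, adjusted p = 0.0246) as the 1 member of 31, against 7.35% of genes called in that fit, a share above that of the members. In the isotype library 94 of 129 cells of the cluster held T cell UMIs beside myeloid ones, compared with 32 of the 104 in ICI 1, 13 of the 181 in ICI 2, 9 of the 162 in ICI 3 and 24 of the 45 in ICI 4. With no low-count filter, all 13 thymocyte genes (median −3.38), all 10 T cell genes (median −1.83) and all 48 G2 and M phase genes (median −2.21) were negative too. The summed thymocyte list stood at 390.3, 36.5, 35.5 and 819.5 CPM against 2544 CPM. With the mixed cells removed, 10 members passed the filter, 6 were negative and the median was −0.22, against 8 negative and −0.40 for the same 10 with all cells.

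Rfc2 went the other way in cluster 7. It stood at 76.0, 62.6, 56.4 and 45.4 CPM in ICI 1 to ICI 4 and at 25.5 CPM in the isotype library, so that every ICI library was above it (log2 1.23 ± 0.39, edgeR adjusted p = 0.527). Without ICI 4 the adjusted p of edgeR was 0.0507. The sign held with the mixed cells removed (log2 1.66) and with cells thinned to 1000 UMIs (log2 2.92). With no low-count filter it was the 1 member of 42 above the isotype library in every ICI library there, against 13% of genes.

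**Figure D5:**
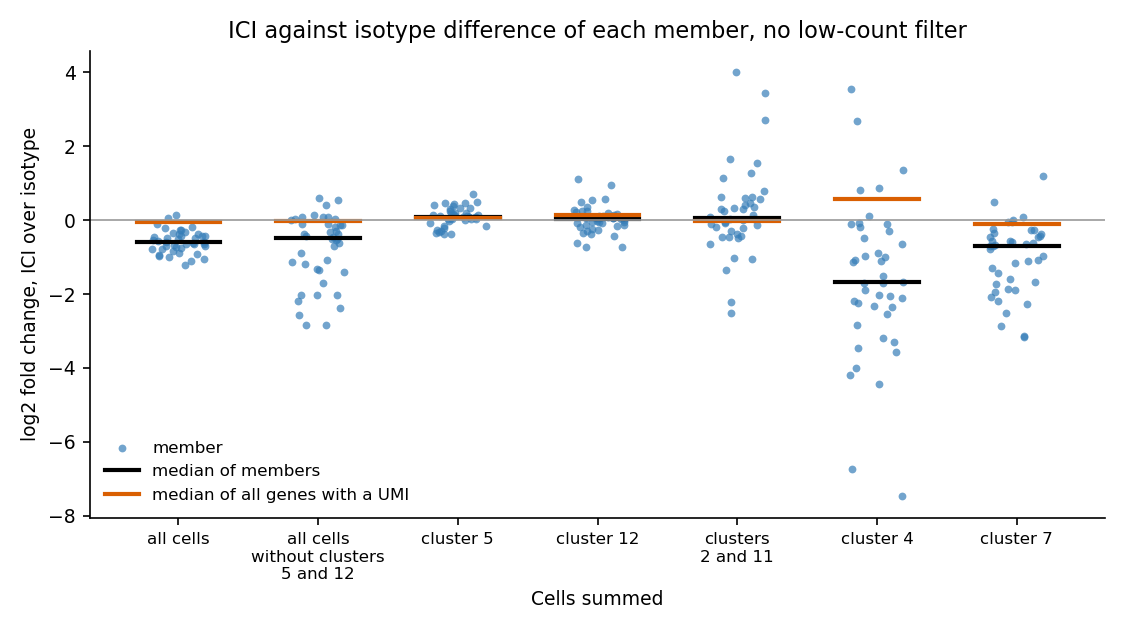
Fitted log2 fold change of ICI over isotype for all 42 members (points) in the 7 sets of cells, with no low-count filter, and the median of members (black) and of all genes with a UMI (orange). Members lie mostly below 0 over all cells, outside clusters 5 and 12 and in clusters 4 and 7, and around 0 in clusters 5, 12 and 2 with 11; the 6 members called in this fit are all in cluster 4. Points of members at 0 UMIs throughout a group, such as E2f8 and Cdc6 in the ICI libraries of cluster 4, depend on the prior count of the fit and give no fold.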

How the data were processed

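Cells were sorted, sequenced and processed by the authors with Cell Ranger and Seurat on mm10, per the submitters' processing notes, with versions not given in the sources used here. The deposited table holds whole-number UMI counts per gene and cell, per the file headers. The deposited cell table adds the cluster, S and G2/M phase scores and the mitochondrial percent of each cell, of which the clusters and phase calls were used. Counts were summed per library and cell set, with at least 20 cells, and tested in edgeR 4.0.16 (R 4.3.3; quasi-likelihood, TMM scaling, low-count filter with a minimum count of 10, Benjamini-Hochberg adjustment over all genes, threshold 0.05), checked on simulated counts. DESeq2 1.42.0 was an alternative. The filter keeps a gene that reaches its level in 1 library, so signs were also counted over all members with no filter. CPM in the cluster descriptions are plain, and those beside a fold change use TMM-scaled library sizes. Cells were thinned to 1000 UMIs where depth mattered. Doublets were not called; cells with at least 2 UMIs each of T cell and myeloid lists were removed as an alternative. Members and lists were chosen with earlier results of these data known. Values in every library were given, by rule, for up to 6 members with the largest and up to 6 with the smallest log2 fold change in each comparison, members past the threshold, the 6 most abundant members and 2 to 4 members of each role.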

Additional observations from a re-analysis of the deposited data

Results flagged for a closer look

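Among the 4 ICI libraries, 11 of 145 member and cell set pairs had 1 library far from the others, measured as its gap to the nearest library divided by the whole range; chance gives about 1 in 20. Over all cells ICI 4 stood apart for Mcm6 (0.853), Rpa2 (0.861), Mcm2 (0.888), Rrm1 (0.83), Cdc6 (0.856) and Mcm4 (0.869). Outside clusters 5 and 12 it stood apart for Nasp (0.868), and ICI 1 for Rpa2 (0.843). In clusters 2 and 11, ICI 3 stood apart for Mcm6 (0.953) and Rfc2 (0.874), on 22 cells. In cluster 4, ICI 4 stood apart for Tk1 (1.0), whose other ICI libraries were at 0.

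For 12 of 42 members (28.6%) every ICI library lay above the isotype library in 1 cluster set and below it in another, and for 21.4% of the 8551 genes tested in at least 2 of these sets the same held. The difference between sets was not tested, and all sets share the 1 isotype library of their comparison. In cluster 4, 10 of the 16 members tested, Tk1 among them, passed the low-count filter through the isotype library alone. In cluster 7, 3 of the 31 did. This fixes a negative value there, so the count of 12 includes sides set by the filter, as for Tk1. The values that follow are differences between log2 fold changes of ICI over isotype in 2 sets, not between levels. In cluster 5 the fold change exceeded that in cluster 7 by 2.923 for Clspn, 2.278 for Rad51ap1 and 1.202 for Pola1. It did so by 0.913 for Rpa2 and 0.899 for Fen1. The fold change in cluster 12 exceeded that in cluster 7 by 1.751 for Hells and 1.23 for Usp1. Compared with cluster 4, the fold change in cluster 5 was higher by 2.78 for Mcm5 and 1.232 for Mcm6. That in cluster 12 was higher by 5.349 for Tk1 and 1.273 for Nasp, and that in clusters 2 and 11 by 1.324 for Slbp. The libraries differ between sets, since ICI 2 did not enter cluster 5 and only ICI 1 and ICI 4 entered cluster 12.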

How the results depend on the processing

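No paired analysis was possible because replicate numbers were given in accession order and the isotype group has 1 library. The isotype group has no replicate, ICI 4 holds most dividing cells, and cells of mixed T and myeloid UMIs were most frequent in the isotype library. Of the values that answer a comparison, 157 alternatives kept the result, 17 moved and 1 reversed, and the cause was not tested. A median was labelled kept or moved by its shift against the SD of library medians, never reversed. Sign changes thus lie among both labels. Over all cells −0.60 became 0.35 with ICI 4 alone (moved), and in cluster 12 0.01 became −0.52 without ICI 4 (kept). Counts of 0 called members in both fits were labelled kept. With ICI 4 alone the median log2 fold change was 0.35 over all cells and −0.25 outside clusters 5 and 12. Thinning gave 0.11 outside clusters 5 and 12, −0.17 in clusters 2 and 11, −1.29 in cluster 4 (1 member) and 1.16 in cluster 7 (2 members), and removing mixed cells gave −0.17 outside clusters 5 and 12 and −0.22 in cluster 7. Leaving out the highest cell of each gene gave −0.24 in clusters 2 and 11 and −0.54 in cluster 4, and leaving out 1 library moved the median of clusters 2 and 11 between −0.021 and 0.35. Members called in cluster 4 were 6 with no low-count filter, 5 with ICI 1 to ICI 3 summed, and between 0 and 1 without 1 library, as in cluster 7 (0 to 1). The difference in the share of cells with at least 4 member UMIs, −6.70 points, was 9.24 points by deposited S calls. The stricter promoter motif gave 34.4%. Of single members, these reversed. With ICI 4 alone over all cells, Gmnn was 0.026, Pclaf 0.29, Cdca7 0.27 and Ubr7 0.23, and outside clusters 5 and 12 Wdr76 was −0.21. Ubr7 over all cells was between −0.24 (without ICI 4) and 0.0066 (without ICI 1), and 0.012 with ICI 1 to ICI 3 summed, Wdr76 was between −0.0295 (without ICI 1) and 0.18 (without ICI 2), −0.10 without mixed cells, and Rfc2 −0.042 without them. Thinned, Prim1 in cluster 5 was 0.30, and in clusters 2 and 11 Cdca7 was 0.033 (0.0070 with ICI 4 alone), Slbp −0.072 and Mcm6 −0.21. In cluster 4, Usp1 ranged from −0.28 without ICI 2 to 0.015 without ICI 4, and was 1.33 without the highest cells. In cluster 7, Mcm6 was −0.11 without ICI 2 to 0.24 without ICI 4, −0.12 with ICI 1 to ICI 3 summed, −0.21 without mixed cells and −0.84 with ICI 4 alone, and Ubr7 was −0.025 without ICI 1 to 0.29 without ICI 4 and −0.61 with ICI 4 alone. Genes called ranged over the alternatives from 0 to 210 over all cells, 0 to 291 outside clusters 5 and 12, 0 to 203 in cluster 5, 3 to 55 in cluster 12, 2 to 83 in clusters 2 and 11, 0 to 80 in cluster 4 and 0 to 647 in cluster 7, against 0, 1, 3, 30, 2, 6 and 0.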
